A study of Mus musculus with 5 samples.

Results

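The Zfp36, Regnase and Roquin genes encode RNA-binding proteins that shorten the life of inflammatory messages, and their transcripts were compared between CD4+ T cell samples from MC38 tumors and from spleen. Members were the 8 genes found by symbol, namely Zfp36, Zfp36l1, Zfp36l2, Zc3h12a, Zc3h12c, Zc3h12d, Rc3h1 and Rc3h2, of 19726 symbols listed in each library. All 8 passed the filter on low values (a mean of at least 1 TPM over the 5 libraries), as did 12979 genes in all. TPM is a relative transcript abundance corrected for length, so that levels of different genes can be set side by side. The tumor group held 2 libraries (replicates 2 and 3) and the spleen group 3 (replicates 1, 2 and 3). Both groups share their labels otherwise, CD4+ T cells taken at 7 weeks of age from mice of the C57/Bl6j strain, wild type and with no other allele or agent named. RNA came from 300000 cells per sample. MC38 is a colon carcinoma line of the mouse that is grown in mice as a transplant. Nothing in the labels ties a replicate to its own mouse, and the p-values below rest on the spread of these 5 libraries, which may be technical.

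Zfp36 encodes tristetraprolin (TTP), a zinc finger protein that binds AU-rich elements in the tails of cytokine messages and brings in the CCR4-NOT complex, which removes the poly(A) tail. Zfp36l1 and Zfp36l2 encode its paralogs, known in lymphocytes for roles in development and quiescence. Regnase-1, the product of Zc3h12a, is an endoribonuclease that cuts stem-loops in messages such as Il6, and Zc3h12c and Zc3h12d encode relatives. Roquin-1 and Roquin-2, the products of Rc3h1 and Rc3h2, bind stem-loop decay elements and limit Icos and Ox40 (Tnfrsf4) in helper T cells. After T cell receptor stimulation the protease MALT1 cleaves Regnase-1 and both Roquins. TTP and Regnase-1 act in macrophages as well as in T cells, and Tnf is the classical TTP target.

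The libraries differed in more than these genes. Listed values summed to 569309 to 596116 TPM in tumor and to 268987 to 359532 TPM in spleen. All 11 T cell identity markers were called lower in tumor, with sums of 232 to 292 TPM in tumor and 939 to 1239 TPM in spleen. All 16 macrophage and monocyte markers were called higher, with sums of 5222 to 5667 TPM in tumor and 29.8 to 37.0 TPM in spleen. None of those 16 was at 0 in any library, and in spleen 15 of them lay under the background level given below. Of the 6 neutrophil markers 2 were higher and 1 lower, and of the 3 endothelial markers 2 were higher. Of the B cell markers 1 of 6 was higher and 1 lower, of the NK cell markers 1 of 4 was lower, and of the dendritic cell markers 1 of 5 was higher. No fibroblast marker was called, and epithelial markers were too low to test, with sums of 1.51 to 1.52 TPM in tumor and 2.06 to 2.58 TPM in spleen. The part of the macrophage signal in any result below was not tested. Fewer cells of a type and less RNA per cell cannot be told apart in such bulk samples. As a background level, the 95th percentile of 1134 olfactory receptor genes, not known to be active in these cells, was 7.59 to 10.7 TPM in tumor and 10.6 to 16.2 TPM in spleen.

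In the deposited TPM 7 of the 8 decay factors were called higher in tumor and none lower, at a limma adjusted p below 0.05. The background is high: 40.9% of all tested genes were called higher and 18.1% lower. For all 8 members both tumor libraries lay above every spleen library, as they did for 46.6% of tested genes. The median log2 change was 1.32 over the 8 members and 0.23 over all tested genes. Being called higher was thus common, and the members differ by the size of their change. Zfp36, Zc3h12a, Zc3h12c and Zfp36l2 rose by 1.86 to 4.55 on the log2 scale, whereas the changes of Zfp36l1, Zc3h12d, Rc3h1 and Rc3h2 lay between 0.34 and 0.78 and turned negative under 3 of 5 other scalings of the libraries. These were the ratio to the median gene (median ratios), equal sums of all listed values (equal totals), the upper quartile, sums that skip the 20 most abundant genes (trimmed totals) and the T cell identity genes.

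**Figure D1:**
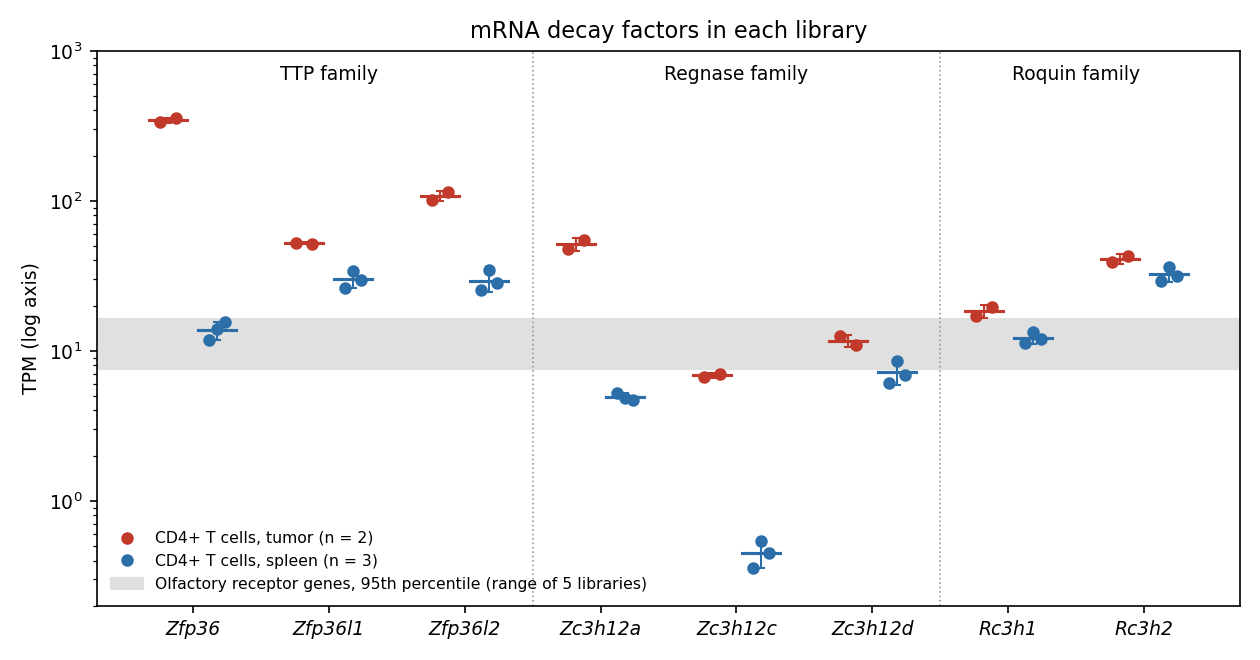
TPM (log axis) of the 8 decay factors in 2 tumor libraries (left, red) and 3 spleen libraries (right, blue), with each group's mean and SD; the grey band spans the 95th percentiles of olfactory receptor genes in the 5 libraries, 7.59 to 16.2 TPM. Zfp36 stood at 334 and 354 TPM in tumor and at 11.8 to 15.6 TPM in spleen, while the points of Rc3h2 nearly touch.

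Zfp36, the gene of tristetraprolin (chr7:28376784-28380253, minus strand, GRCm38), showed the largest change of the 8; gene coordinates here and below are those of GENCODE M21. It stood at 334 and 354 TPM in tumor replicates 2 and 3, against 11.8, 13.9 and 15.6 TPM in spleen replicates 1, 2 and 3. Both tumor libraries were thus far above all spleen libraries, where the gene lay close to the background level and exceeded it in 2 of 3. The means were 344 ± 14.5 TPM (SD, n = 2) in tumor and 13.8 ± 1.92 TPM (SD, n = 3) in spleen, a ratio of 25.0. The log2 change was 4.55 ± 0.21 (SE; limma adjusted p = 1.1e-24), and 2.38% of tested genes had a larger one. Among tested genes outside the family, the profile over the 5 libraries most like that of Zfp36 was that of Tnf, at a Euclidean distance of 0.12 on the centred log2(TPM + 1) scale. Gpr137b and Bst2 followed at 0.17 each.

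The promoter of Zfp36 is shown because this gene moved most; the sequence is from RefSeq (GRCm38.p6, chr7:28379179-28379478, minus strand), a window of 300 bases that ends shortly after the start annotated by RefSeq. That start lies inside the GENCODE gene given above, whose longer transcript begins further upstream. Capitals mark, in order, a match to the EGR motif GCGNGGGCG and a match to the CArG box bound by serum response factor.
Zfp36 promoter: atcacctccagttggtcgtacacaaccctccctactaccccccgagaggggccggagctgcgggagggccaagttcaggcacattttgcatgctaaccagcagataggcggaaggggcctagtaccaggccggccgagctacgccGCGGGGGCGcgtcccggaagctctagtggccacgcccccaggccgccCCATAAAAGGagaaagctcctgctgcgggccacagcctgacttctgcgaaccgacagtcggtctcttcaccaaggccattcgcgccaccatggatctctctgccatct
Searched on both strands, the EGR motif occurs in 5.60% and the CArG box in 1.64% of 32544 promoter windows of this length. Promoters of 7 members were matched, Zc3h12c with 2 windows. The AP-1 motif TGANTCA, in 7.79% of windows, had 1 match each at Zfp36l1 and Rc3h1, the TATA box TATAAA, in 13.6%, 1 match at Zfp36l1, and the NF-kappaB consensus, in 8.49%, 1 match at Zc3h12c. The cyclic AMP response element TGACGTCA, in 1.80% of windows, was matched in none of them. A match is a description of the letters and not a bound site.

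Zfp36l2 (chr17:84183931-84187947, minus strand), the paralog known for keeping lymphocytes quiescent, rose less. Its level was 102 and 114 TPM in tumor, against 25.3, 34.3 and 28.2 TPM in spleen replicates 1, 2 and 3. The groups did not overlap, and the log2 change was 1.86 ± 0.21 (SE; limma adjusted p = 9e-11). Zfp36l1 (chr12:80107754-80113013, minus strand) was at 52.6 and 51.8 TPM in tumor, against 26.4, 34.2 and 29.6 TPM in spleen. Its log2 change was 0.78 ± 0.21 (SE, adjusted p = 0.0012 by limma), and it became -0.02 on the upper quartile, -0.13 with equal totals and -0.21 with trimmed totals. Zfp36l1 has an annotated processed pseudogene, and the sources used here do not give how reads were divided between the copies. The rodent paralog Zfp36l3 was below 0.13 TPM in every library.

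The family's make-up, which does not depend on the scaling between libraries, did not overlap between the tissues. Zfp36 contributed 68.4% and 68.1% of the family's summed TPM in tumor, against 18.5%, 16.9% and 21.2% in spleen. Zfp36l1 contributed 9.95% to 10.8% in tumor, against 40.3% to 41.6% in spleen. The share of Zfp36l2 was 20.9% to 22.0% in tumor, against 38.4% to 41.6% in spleen. In spleen the paralogs Zfp36l1 and Zfp36l2 were thus at like levels, with overlapping ranges, and Zfp36 below both, whereas in tumor Zfp36 was the most abundant of all 8 members. The log2 ratio of Zfp36 to Zfp36l2 averaged 1.67 ± 0.06 in tumor (SD, n = 2) and -1.09 ± 0.22 in spleen (SD, n = 3). A two-sided exact permutation test of this difference gives p = 0.2, the smallest that 2 against 3 libraries allow, as it does for every share and ratio named here.

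**Figure D2:**
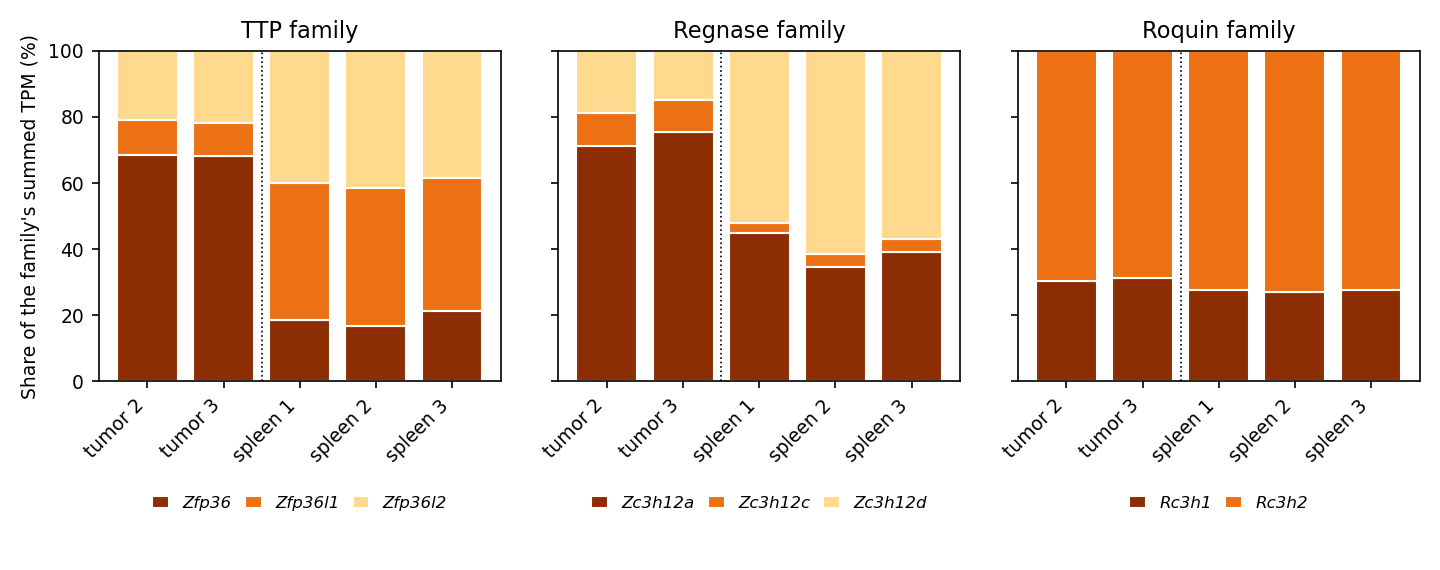
Share of each member in the summed TPM of its family (%), per library, with the 2 tumor libraries left of the dotted line and the 3 spleen libraries right of it. Zfp36 takes 68.1% to 68.4% of the TTP family in tumor and 16.9% to 21.2% in spleen, and the Roquin split of 30.5% to 31.4% Rc3h1 in tumor and 27.0% to 27.8% in spleen is nearly even across libraries.

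The messages of the TTP family carry sites of the kind that its proteins bind. The nonamer TTATTTATT, the core of the AU-rich element that TTP prefers, was searched on the sense strand of annotated 3′ untranslated regions, 1 transcript per gene (GENCODE M21, GRCm38). It was present in 5 of the 8 members, namely all 3 of the TTP family and both Roquin genes, and in none of the Regnase genes, against 7.26% of 19046 genes. The 3 sites of the TTP family are shown because they place the family among the carriers of its own motif; each is a 30-base window with the nonamer in capitals, at chr7:28376950-28376979, chr12:80108166-80108195 and chr17:84184913-84184942, all on the minus strand.
Zfp36: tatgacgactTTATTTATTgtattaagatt
Zfp36l1: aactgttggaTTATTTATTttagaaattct
Zfp36l2: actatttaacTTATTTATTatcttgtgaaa
Each of these regions held 1 copy. They are 774, 1835 and 1822 bases long, against a median of 900 bases over all genes searched, and the Rc3h1 and Rc3h2 regions with 1 copy each are 7181 and 5160 bases long. The 3 Regnase regions without a copy are 856 to 4062 bases long.

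On the log2(TPM + 1) scale Zc3h12a, the gene of Regnase-1, changed most outside the TTP family. By ratio of means Zc3h12c changed more, at 15.2 against 10.4 for Zc3h12a. With a pseudocount of 0.1 it did so as well, at 3.67 against 3.35 on the log2 scale. Zc3h12a (chr4:125118423-125127840, minus strand) was at 47.7 and 55.0 TPM in tumor, against 5.25, 4.85 and 4.72 TPM in spleen. Every spleen value lay under the background level of its library and both tumor values above it. The means of 51.3 ± 5.21 TPM in tumor and 4.94 ± 0.28 TPM in spleen (SD, n = 2 and n = 3) differed by 3.14 ± 0.21 on the log2 scale (SE; limma adjusted p = 1.4e-18).

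The other Regnase genes stood at lower levels in tumor than Zc3h12a. Zc3h12c (chr9:52111344-52168572, minus strand), whose product Regnase-3 is known from macrophages in mice, was at 6.68 and 7.04 TPM in tumor, against 0.36, 0.54 and 0.45 TPM in spleen. All 5 values lay under the background level, although the groups were well apart. Its log2 change of 2.44 ± 0.22 (SE; limma adjusted p = 5.3e-14) understates the ratio of means, 15.2, because of the pseudocount; it was 3.67 with a pseudocount of 0.1 and 0.69 with one of 10. Zc3h12d (chr10:7832470-7870396, plus strand), the gene of Regnase-4, which is expressed in lymphocytes, was at 12.5 and 10.9 TPM in tumor, against 6.12, 8.60 and 6.87 TPM in spleen. The spleen values were all under the background level. Its log2 change of 0.64 ± 0.21 (SE; limma adjusted p = 0.0079) lost its call without tumor replicate 2 (limma adjusted p = 0.12), and it became -0.10 on the upper quartile, -0.20 with equal totals and -0.27 with trimmed totals.

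Within the Regnase family the leading gene was Zc3h12a in tumor and Zc3h12d in spleen. In all 3 spleen libraries the family's genes lay under the background level, so the spleen shares rest on such low values. Zc3h12a made up 71.3% and 75.5% of the summed TPM in tumor, against 44.8%, 34.7% and 39.2% in spleen. Zc3h12d made up 18.7% and 14.9% in tumor, against 52.2%, 61.4% and 57.1% in spleen, below Zc3h12a in both tumor libraries and above it in all 3 spleen libraries. Zc3h12c took 9.99% and 9.65% in tumor and 3.06% to 3.88% in spleen. The relative Zc3h12b, which is not a member, was at 0.39 and 0.85 TPM in tumor and at 1.39 to 1.94 TPM in spleen.

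The Roquin genes changed least. Rc3h1 (chr1:160906418-160974978, plus strand) was at 17.1 and 19.7 TPM in tumor, against 11.3, 13.4 and 12.0 TPM in spleen, 2 of the 3 spleen values lying under the background level. Its log2 change of 0.55 ± 0.21 (SE; limma adjusted p = 0.02) was no longer called without spleen replicate 3, tumor replicate 2 or tumor replicate 3 (limma adjusted p = 0.094, 0.066 and 0.2) or after scaling by median ratios (limma adjusted p = 0.086). Rc3h2 (chr2:37370069-37422903, minus strand) was at 38.9 and 43.1 TPM in tumor, against 29.3, 36.2 and 31.4 TPM in spleen. It was the member that was not called (log2 change 0.34 ± 0.21 SE, limma adjusted p = 0.16), although it was called higher without spleen replicate 2 (limma adjusted p = 0.026). It was called lower on the upper quartile (log2 change -0.46, limma adjusted p = 0.003), with equal totals (-0.57, limma adjusted p = 0.0035) and with trimmed totals (-0.65, limma adjusted p = 0.00057). Rc3h1 followed the same sign changes, at -0.22, -0.32 and -0.40, and was called lower with trimmed totals (limma adjusted p = 0.013).

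Relative to each other the Roquin genes shifted little. Rc3h1 made up 30.5% and 31.4% of their sum in tumor, against 27.8%, 27.0% and 27.6% in spleen. The difference of 3.48 percentage points is small beside the 49.3 points of Zfp36 in its family. The genes whose profiles lay nearest to that of Rc3h2 over the 5 libraries were Cab39, Chd1 and Rpl7a, at distances of 0.02 to 0.03 on the same scale.

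The order of the members by level differed between the tissues. In tumor it ran Zfp36, Zfp36l2, Zfp36l1, Zc3h12a, Rc3h2, Rc3h1, Zc3h12d and Zc3h12c, and only the neighbours Zfp36l1 and Zc3h12a overlapped (52.2 and 51.3 TPM on average). In spleen it ran Rc3h2, Zfp36l1, Zfp36l2, Zfp36, Rc3h1, Zc3h12d, Zc3h12a and Zc3h12c. There the ranges of Rc3h2 and Zfp36l1, of Zfp36l1 and Zfp36l2 and of Zfp36 and Rc3h1 overlapped. The 8 members summed to 611 and 656 TPM in tumor, against 116, 146 and 129 TPM in spleen. Of these sums the TTP family made up 488 and 520 TPM in tumor and 63.4 to 82.5 TPM in spleen, and the Roquin genes 55.9 and 62.8 TPM in tumor and 40.6 to 49.6 TPM in spleen.

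The sign of the smaller changes depended on the scaling of the libraries. The median change of all tested genes was 0.23 in the deposited TPM and 0.16 by median ratios. It was -0.54 with equal totals, -0.45 on the upper quartile, -0.60 with trimmed totals and 2.11 when libraries were scaled on the 11 T cell identity genes. Zfp36, Zfp36l2, Zc3h12a and Zc3h12c were called higher under each of these 6 scalings. By median ratios 6 members were called higher, beside 37.3% of all genes higher and 21% lower. With equal totals 4 were called higher and 1 lower, beside 21% higher and 51.3% lower, and on the upper quartile also 4 and 1, beside 23.7% higher and 49% lower. With trimmed totals 4 were called higher and 2 lower, beside 20.4% higher and 56.4% lower. Scaled on T cell identity genes all 8 were called higher, as were 95% of all genes, with 0.886% lower.

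Set against the median of all tested genes, the members moved much less between scalings, as the subtraction makes them do. A scaling divides all genes of a library by a common factor, so it shifts a member and the median by about the same amount. The differences below therefore do not test the scalings, and only place each member among all genes. Zfp36 stood 4.17 to 4.54 above it on the log2 scale, Zc3h12a 2.80 to 3.00, Zc3h12c 1.75 to 2.39 and Zfp36l2 1.47 to 1.88. Zfp36l1 stood 0.40 to 0.80 above it, Zc3h12d 0.33 to 0.50 and Rc3h1 0.21 to 0.49. Rc3h2 lay between 0.05 below and 0.35 above that median, so that its change was close to that of the middle of all genes under 5 of the 6 scalings.

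**Figure D3:**
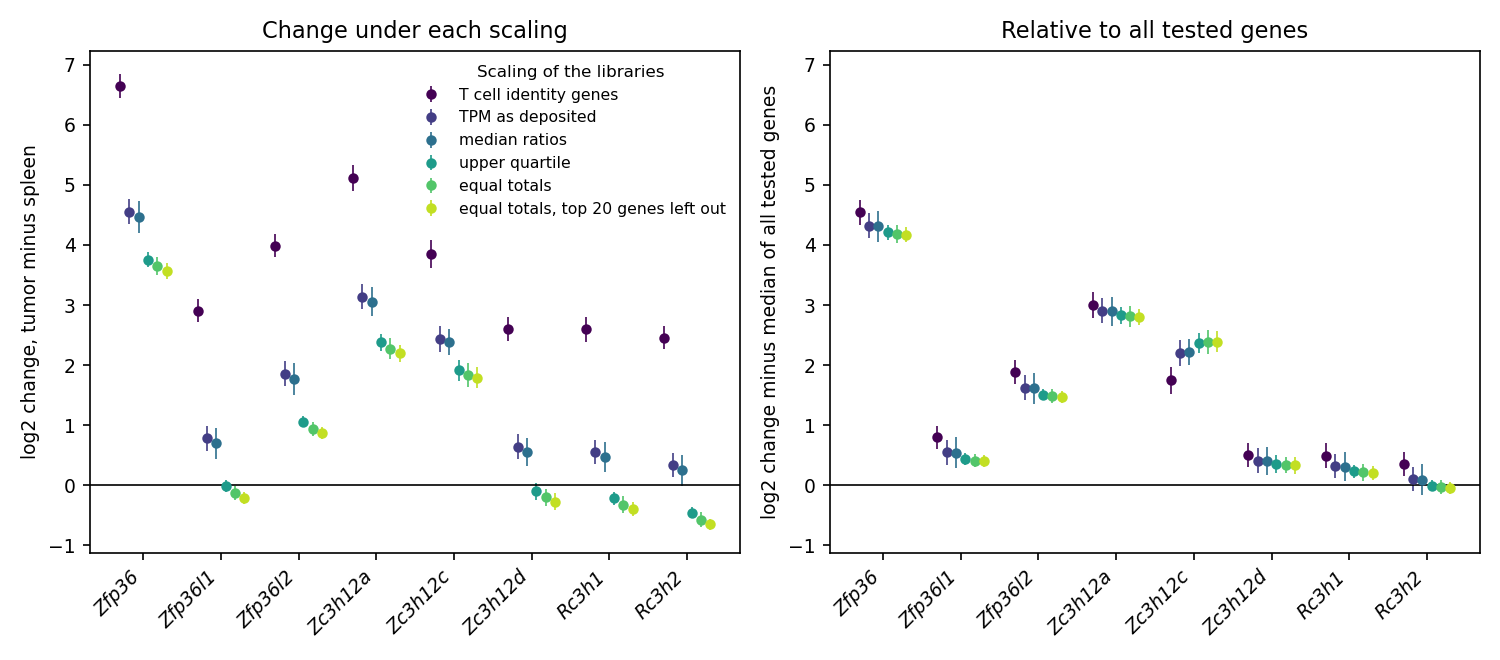
Log2 change of the 8 members (tumor minus spleen, with SE) under 6 scalings of the libraries; left, as estimated, and right, after subtracting the median change of all 12979 tested genes under the same scaling. On the left Zfp36l1, Zc3h12d, Rc3h1 and Rc3h2 cross 0 under equal totals, the upper quartile and trimmed totals. On the right Zfp36 lies at 4.17 to 4.54 and Rc3h2 near 0, where the subtraction itself removes most of the shift between scalings.

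Regulators of the decay factors were largely higher in tumor. Of 17 listed regulators 12 were called higher and 2 lower, beside the same 40.9% and 18.1% of all tested genes, and 3 passed in neither direction. Their median log2 change was 1.82, beside 0.23 for all tested genes. With equal or trimmed totals, and also on the upper quartile, 9 were called higher and 5 lower. Under these scalings 20.4% to 23.7% of all tested genes were called higher and 49% to 56.4% lower. The kinase MK2 phosphorylates TTP and restrains it. Its gene Mapkapk2 was at 113 and 132 TPM in tumor, against 8.44, 12.5 and 10.3 TPM in spleen (log2 change 3.45 ± 0.21 SE, limma adjusted p = 1.2e-19). Map2k3, which encodes a kinase upstream of p38 and MK2, was at 98.7 and 99.5 TPM in tumor, against 5.59 to 6.27 TPM in spleen. Its relative Map2k6 had the opposite sign, at 0.79 and 1.34 TPM in tumor and 3.64 to 3.82 TPM in spleen, all under the background level, and its change became positive when scaled on T cell identity genes. Dusp1 encodes the phosphatase that switches p38 off, and its change was the largest of the list. It was at 824 and 826 TPM in tumor, against 9.13, 3.69 and 11.7 TPM in spleen. The log2 change was 6.61 ± 0.25 (SE; limma adjusted p = 4.2e-28). All spleen values of Dusp1 and Map2k3 lay under the background level, and Mapkapk2 exceeded it in 1 of 3 spleen libraries.

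The gene of the protease that cleaves Regnase-1 and Roquin was among those that rose. Malt1 was at 161 and 172 TPM in tumor, against 29.0, 39.6 and 38.3 TPM in spleen (log2 change 2.20 ± 0.21 SE, limma adjusted p = 5.6e-13), and it was called higher under all 6 scalings. N4bp1, an endoribonuclease gene related to the Regnases, was at 34.0 and 37.8 TPM in tumor and 3.74 to 5.04 TPM in spleen. Its spleen values all lay under the background level. Bcl10, whose product is the partner of MALT1, and Card9, which acts with both in myeloid cells, are of the same list and were picked here after their values were seen. Bcl10 averaged 51.5 TPM in tumor and 12.4 TPM in spleen, and Card9 17.2 TPM in tumor and 2.01 TPM in spleen (both called). The spleen values of Card9 all lay under the background level. Cyld, a deubiquitinase gene, was at 39.1 and 38.7 TPM in tumor and 48.9 to 69.2 TPM in spleen. Its log2 change of -0.56 was no longer called without spleen replicate 3, tumor replicate 2 or tumor replicate 3 (limma adjusted p = 0.09, 0.14 and 0.14) and was 1.58 when scaled on T cell identity genes.

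The effectors are the deadenylases, decapping factors, adaptors and exonuclease that carry out decay once a message is bound. Of 28 listed effectors 14 were called higher and 3 lower, beside 40.9% higher and 18.1% lower over all tested genes, and 11 passed in neither direction. Their median log2 change was 0.50. On the upper quartile 7 were called higher and 14 lower, beside 23.7% and 49% over all tested genes, and with equal totals also 7 and 14, beside 21% and 51.3%. The antiproliferative BTG and TOB proteins bring CCR4-NOT to messages, and all 4 of their genes in the list, a grouping by role made after the values were seen, were called higher under each of the 6 scalings. Btg2 was at 284 and 306 TPM in tumor, against 28.5, 32.3 and 30.6 TPM in spleen (log2 change 3.23 ± 0.20 SE, limma adjusted p = 4e-19). Tob2 was at 27.0 and 33.1 TPM in tumor, against 5.45 to 6.90 TPM in spleen, all under the background level there. Tob1 was at 15.6 and 12.6 TPM in tumor, against 3.38 to 3.72 TPM in spleen, all 3 of those under the background level. Btg1, the fourth, was at 476 and 468 TPM in tumor, against 144 to 165 TPM in spleen, a log2 change of 1.61. Dcp2, the gene of the decapping enzyme and no adaptor, changed by about as much (1.67) and was at 34.3 and 35.9 TPM in tumor and 9.61 to 11.6 TPM in spleen.

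The 11 subunits of CCR4-NOT had a median log2 change of 0.48, with 6 called higher and 1 lower, beside 40.9% and 18.1% of all tested genes. With equal totals 1 was higher and 6 lower, beside 21% and 51.3% of all tested genes. By median ratios 4 were higher, beside 37.3%. Without spleen replicate 1 or spleen replicate 3 also 4 were higher, beside 4991 and 4633 of the 12979 tested genes. Without tumor replicate 2 or tumor replicate 3, which leaves 1 tumor library, fewer were called higher than the 6 of the full fit. Their median change was then 0.541 and 0.365, beside 0.295 and 0.175 for all tested genes. Cnot1, the scaffold that TTP and Roquin contact, was at 50.5 and 61.9 TPM in tumor, against 54.4, 78.4 and 59.5 TPM in spleen. Those groups overlapped and the gene was not called (log2 change -0.18 ± 0.21 SE, limma adjusted p = 0.48), although it was called lower with equal totals (-1.09). Cnot7, a deadenylase subunit, was at 39.3 and 45.2 TPM in tumor and 22.2 to 31.7 TPM in spleen, a log2 change of 0.70 that became -0.21 with equal totals. It was not called without tumor replicate 3 (limma adjusted p = 0.097). The 3 genes called lower were Cnot6l, another deadenylase subunit, Parn, a poly(A)-specific ribonuclease, and Dcp1b, a decapping cofactor. Their log2 changes of -0.66, -0.79 and -1.05 were all positive when scaled on T cell identity genes. Dcp1b alone among the 28 effectors was called lower without tumor replicate 2, and Cnot6l was also not called without spleen replicate 3 (limma adjusted p = 0.053) or tumor replicate 3 (limma adjusted p = 0.075).

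Genes of other proteins that bind AU-rich elements were called at about the shares of all genes. Of 10 such genes 4 were called higher and 2 lower, beside 40.9% higher and 18.1% lower over all tested genes, and 4 passed in neither direction. Their median log2 change was 0.36, beside 0.23 for all tested genes. Elavl1 encodes HuR, which stabilises AU-rich messages, and was at 28.5 and 36.6 TPM in tumor, against 16.0, 20.8 and 18.6 TPM in spleen. Its log2 change of 0.78 was not called without tumor replicate 3 (limma adjusted p = 0.087) and was -0.12 with equal totals. Ybx1, a cold shock protein gene, averaged 183 TPM in tumor and 73.4 TPM in spleen. Hnrnpab averaged 96.6 TPM in tumor and 44.4 TPM in spleen, and it was not called with equal totals (limma adjusted p = 0.24) or trimmed totals (limma adjusted p = 0.34). Hnrnpd, the gene of AUF1, averaged 76.6 TPM in tumor and 40.7 TPM in spleen, a log2 change of 0.93 that was 0.01 with equal totals and -0.07 with trimmed totals. Tia1, a translational silencer gene, averaged 27.4 TPM in tumor and 52.4 TPM in spleen, and Celf1 40.9 TPM in tumor and 60.6 TPM in spleen. Both of these were called lower and had positive changes when scaled on T cell identity genes. Celf1 was not called without spleen replicate 3 or tumor replicate 2.

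Messages described as targets of the 8 factors were higher in the same tumor libraries. Of 24 listed targets 21 were tested, of which 17 were called higher and 3 lower, beside 40.9% and 18.1% of all tested genes. Their median log2 change was 3.50. Median ratios gave 17 rises, beside 37.3% of all tested genes. Trimmed totals, the upper quartile and equal totals gave 16 rises each, beside 20.4% to 23.7% of all tested genes. T cell identity scaling gave 19 rises among the 21, beside 95% of all tested genes, so that count does not set the targets apart. Csf2, Il2 and Il17a fell below the filter. The largest changes were those of Ccl2, Cxcl2, Ptgs2 and Ier3. The chemokine gene Cxcl2 was at 909 and 606 TPM in tumor and below 0.57 TPM in spleen. Ptgs2, the gene of cyclooxygenase-2, was at 424 and 452 TPM in tumor and below 0.57 TPM in spleen. Tnf was at 155 and 149 TPM in tumor, against 4.63, 5.79 and 6.07 TPM in spleen (log2 change 4.57 ± 0.21 SE, limma adjusted p = 9.1e-25).

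Icos and Tnfrsf4, known as Roquin targets in helper T cells, rose by less. Icos, the gene of a costimulatory receptor, was at 82.4 and 54.4 TPM in tumor, against 16.4, 21.3 and 20.4 TPM in spleen (log2 change 1.75 ± 0.22 SE, limma adjusted p = 1.1e-09). Tnfrsf4, the gene of OX40, was at 54.2 and 46.8 TPM in tumor, against 11.3, 16.7 and 15.2 TPM in spleen (log2 change 1.75 ± 0.21 SE, limma adjusted p = 6.6e-10). Rel, which encodes the NF-kappaB subunit c-Rel, was at 64.5 and 79.9 TPM in tumor and at 4.42, 7.45 and 4.88 TPM in spleen. The spleen values of Rel, Tnf, Cxcl2 and Ptgs2 all lay under the background level. In these libraries macrophage and monocyte markers summed to 5222 to 5667 TPM in tumor and 29.8 to 37.0 TPM in spleen, and their part in the targets' changes was not tested. The 3 targets called lower were Bcl2, Ifng and Notch1. Bcl2, a survival gene, averaged 5.12 TPM in tumor and 24.9 TPM in spleen. Ifng, at 2.89 and 0.83 TPM in tumor and 4.31 to 4.84 TPM in spleen, was under the background level throughout, and its fall was not called without tumor replicate 3 (limma adjusted p = 0.1). Notch1 averaged 14.2 TPM in tumor and 23.2 TPM in spleen and was not called without tumor replicate 2 (limma adjusted p = 0.12). Scaled on T cell identity genes, Bcl2 was not called and the changes of Ifng and Notch1 became positive.

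**Figure D4:**
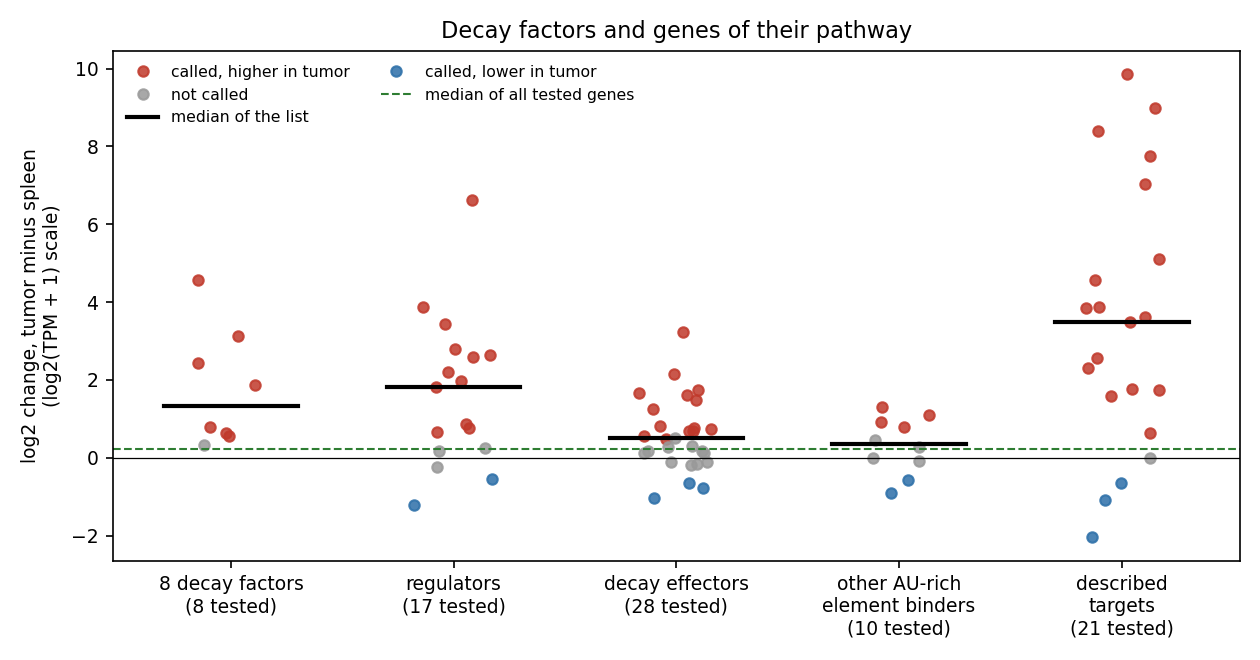
Log2 change (tumor minus spleen, log2(TPM + 1) scale) of each tested gene among the 8 decay factors, 17 regulators, 28 decay effectors, 10 other AU-rich element binding proteins and 21 described targets; black bars are list medians and the dashed line is the median of all tested genes, 0.23. The list medians are 1.32, 1.82, 0.50, 0.36 and 3.50, and colors give the calls in the deposited TPM, some of which change with the scaling.

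The nonamer was unevenly spread over the targets. It was found in 10 of the 24, against 7.26% of all genes searched. Tnf held 5 overlapping copies and Cxcl2 and Csf2 4 each, while 0.604% of all genes searched held 3 or more. The regions of the 10 are 317 (Csf2) to 5418 bases (Rel) long, against a median of 900 bases over all genes searched. Of the 10, Tnf, Cxcl1, Cxcl2, Ptgs2 and Rel were called higher, Bcl2 and Notch1 lower and Il23a in neither direction. Csf2 and Il2 fell below the filter. All 10 are named here as carriers, outside the rule for list genes. Sites of 3 targets that rose strongly are shown, with the nonamer in capitals, followed by the stem-loop of the Tnf message that Roquin binds, its constitutive decay element, with TTTTC, any 3 bases and GAAAA in capitals. They lie at chr17:35199670-35199699 (minus strand), chr5:90905340-90905369 (plus strand), chr1:150105790-150105819 (plus strand) and chr17:35199577-35199606 (minus strand).
Tnf: tatttatttaTTATTTATTtatttgcttat
Cxcl2: atgtatttatTTATTTATTaattccattgc
Ptgs2: ctgaccatatTTATTTATTtatgtgaagaa
Tnf decay element: cagacatgTTTTCTGTGAAAAcggagctga
The decay element letters, searched on the sense strand of the same regions, occurred in 1.17% of genes and in Tnf and Ctla4 among the targets. Ctla4, which encodes an inhibitory receptor of T cells and was picked here after its values were seen, averaged 101 TPM in tumor and 19.7 TPM in spleen (log2 change 2.30 ± 0.21 SE, limma adjusted p = 2.1e-13). Ccl2, Icos, Tnfrsf4 and Ier3 held neither motif. Lacking these letters says nothing of whether a factor acts on a message.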

How the data were processed

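Total RNA was depleted of ribosomal RNA and sequenced with strand kept, as read pairs, per the labels' protocols. The authors deposited 1 value per gene symbol and library. The unit is taken as TPM, because the deposited numbers have decimals and come with kallisto in the notes. They sum to 268987 to 596116 per library, whereas complete TPM values have a fixed total, so the sums are no evidence for the unit. What the listed genes leave out was not tested. Per the submitters' processing notes the tools and build were kallisto, DESeq2 and mm10 (GRCm38), with no role given. Coordinates and sequences were read from annotation of that build. Read depth is unknown and no counting interval is given.

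The 12979 genes whose mean reached 1 TPM were fitted in limma 3.58.1 (R 4.3.3) on log2(TPM + 1). The model held tissue alone and a trend of variance with level. Tests were two-sided, p-values were adjusted by Benjamini-Hochberg over those genes, and an adjusted p below 0.05 was a call. The log2(TPM + 1) scale understates changes of low genes. The prior carried 44.1 degrees of freedom beside 3 from the residuals, so a gene's error leans on genes at similar levels. The fit was tested on simulated data. Shares and ratios were tested with exact permutation tests (scipy 1.17.1).

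Members and lists were chosen with earlier results of these data known. Named list genes are those called with the smallest p, up to 4 in each direction, plus some chosen by role; genes named outside this rule are marked. Nearest profiles, the 3 of the members with the largest and the smallest change, leave out gene models, olfactory receptors and receptor segments. Alternatives covered scaling, filter, pseudocount, threshold, trend, a 2-fold minimum, a block and each library left out. Untranslated regions came from the principal transcript of each gene, or the one with the longest such region.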

Additional observations from a re-analysis of the deposited data

How the results depend on the processing

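The small number of libraries, a lone tumor library in some fits (assumed to vary like the spleen libraries) and unknown depth limit what these data resolve; low members such as Zc3h12c are limited most, and it was not tested with a filter of 5 TPM. Over 41 genes, many of them named for the smallest p in the deposited TPM, 653 comparisons with an alternative kept direction and side of the threshold. Another 29 changed sign, some of them losing the call as well. Of those that kept their sign 47 lost and 5 gained the call. The cause was not tested.

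In the order equal totals, upper quartile, trimmed totals, members called higher numbered 4, 4 and 4 and lower 1, 1 and 2; effectors 7, 7 and 6 higher and 14, 14 and 14 lower; regulators 5, 5 and 5 lower; other AU-rich element binding proteins 1, 2 and 1 higher and 6, 5 and 6 lower. Over all tested genes the same 3 scalings had 21%, 23.7% and 20.4% higher and 51.3%, 49% and 56.4% lower. Scaled on T cell identity genes, 28 effectors and 10 of those binding proteins were higher, beside 95% of all tested genes. There 0 effectors, 0 regulators, 0 binding proteins and 0 targets were lower, beside 0.886%. Against a 2-fold change 4 members, 5 effectors and 0 binding proteins were higher, beside 2199 of 12979 tested genes. There 0 effectors, 0 regulators, 0 binding proteins and 1 target were lower, beside 274 tested genes. At a threshold of 0.01, 1 regulator and 1 binding protein were lower, beside 1552 of 12979 tested genes. With a filter of 5 TPM 1 regulator was lower, beside 1456 of 8535 tested genes. Leaving out 1 spleen library at a time, 6 to 8 members and 12 to 17 effectors were higher, beside 4633 to 5842 of 12979 tested genes. Then 2 to 3 effectors, 1 to 2 regulators and 1 to 2 binding proteins were lower, beside 1697 to 2623 tested genes. Without tumor replicate 2 or tumor replicate 3, 1 tumor library is left. The median log2 change was then 1.357 and 1.285 for members and 0.559 and 0.402 for effectors. Over all tested genes it was 0.295 and 0.175.

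Signs changed in the same 3 scalings for Zfp36l1 (-0.13, -0.02 and -0.21), Zc3h12d (-0.20, -0.10 and -0.27), Rc3h1 (-0.32, -0.22 and -0.40), Rc3h2 (-0.57, -0.46 and -0.65), Cnot7 (-0.21, -0.10 and -0.29) and Elavl1 (-0.12, -0.01 and -0.19), and with trimmed totals for Hnrnpd (-0.07). Scaled on T cell identity genes they changed for Dcp1b (0.71), Parn (1.23), Cnot6l (1.48), Cnot1 (1.97), Map2k6 (0.24), Cyld (1.58), Tia1 (1.23), Celf1 (1.57), Ifng (0.48) and Notch1 (1.43). With a pseudocount of 1, the difference in the log2 ratio of Zc3h12c to Zc3h12a became -0.70, against 0.57, and that of Zc3h12a to Rc3h2 became 2.80, against 3.03.

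The labels give no meaning to the replicate numbers 2 and 3 that the tissues share, and same-numbered libraries' deviations correlated at 0.20 and 0.07 across genes, which are not independent replicates. With the replicate number as a block, in which spleen replicate 1 has no partner, 5 members were called higher, Zc3h12d (adjusted p = 0.051) and Rc3h1 (adjusted p = 0.092) no longer being called by limma. Cnot7 (adjusted p = 0.052) and Celf1 (adjusted p = 0.13) also lost their limma calls with the block. Under it 3 CCR4-NOT subunits were higher, against 6 without it, and 1 of the other binding proteins was lower. Over all tested genes 4877 of 12979 were then called higher and 2013 lower.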

Other observations

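The nonamer TTATTTATT was also tallied over all tested genes with an annotated 3′ untranslated region, after the values of the members were seen and with no test between classes. Olfactory and vomeronasal receptor genes, which serve above as a background level, made up 20 of the 93 genes with 3 or more copies and 447 of all 12776, and 43.8% of those 447 were called lower in tumor. Without them, 26 of 73 genes with 3 or more copies (35.6%) were called higher and 12 (16.4%) lower, with a median log2 change of 0.04, beside 42.5% higher, 16.9% lower and a median of 0.28 over all 12329 genes without receptor genes. With the receptor genes kept, the class with 3 or more copies had 28% higher, 23.7% lower and a median of -0.14. The length of the region differed between classes, with medians without receptor genes of 2680 bases for 3 or more copies and 948 bases for none, and the part of length was not tested. Tnf and Cxcl2, with log2 changes of 4.57 and 8.99, stand at the upper end of the class with 3 or more copies, together with the interleukin-10 receptor gene Il10ra at 4.78 and the stress phosphatase subunit gene Ppp1r15a at 3.96.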
